A study of Mus musculus with 14 samples.

Results

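Benzyl alcohol and heat shock were compared directly, on 3 arrays of B16-F10 cells given benzyl alcohol against 3 arrays of heat-shocked B16-F10 cells, out of 14 arrays in the series. The members were chosen by the treatment in their labels, and no untreated array entered the contrast. B16-F10 is a pigmented melanoma cell line of the C57BL/6J mouse, and all groups were grown at 37 °C in RPMI medium with serum. Heat shock was 42.5 °C for 1 h, after which the cells recovered at 37 °C for 30 min. Benzyl alcohol was added at 40 mM for 1 h at 37 °C. The descriptions of its recovery conflict, one giving 3 h in fresh medium and another 30 min for every treatment. If the longer time holds, the agent and the time of recovery cannot be told apart in this contrast. The 5 arrays of untreated cells are used beside it to place a level, and the 3 arrays of cells given Lipofectamine are not part of it. Labels name each array a biological replicate.

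Benzyl alcohol is a small amphiphilic molecule that inserts into membranes and makes them more fluid, as heat does, without warming the cell. The contrast asks which transcripts such a fluidizer shares with heat and which follow heat only. Heat unfolds proteins, which frees heat shock factor 1 (HSF1) from its chaperones. HSF1 then assembles as a trimer on heat shock elements, arrays of the letters GAA and TTC, and switches on genes for chaperones. These are proteins that hold, refold or deliver damaged proteins, and in melanoma cells, as in others, they are made within an hour of a heat stress.

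Each gene was read from Affymetrix probesets, groups of short probes, whose signal the authors gave as log2 values from RMA. A level is therefore a log2 signal, a difference of 1 is a doubling, and levels of different probesets cannot be set against each other. A difference between the treatments passed where its adjusted p from limma was under 0.05 over all 22626 probesets. Of these, 3336 passed (14.7%), 2191 with a higher level after benzyl alcohol (9.68%) and 1145 with a higher level after heat shock (5.06%). They carry 2324 gene symbols, and 355 probesets differed at least 2-fold, 215 being higher after benzyl alcohol and 140 after heat shock. Of all calls 65.7% were higher after benzyl alcohol, a share that became 55.6% once quantile normalization was applied to the 6 arrays. Read from the brightest probeset of each of 12393 genes, 1846 genes passed (14.9%), 1115 higher after benzyl alcohol (9%) and 731 after heat shock (5.9%). The median difference over all genes was −0.03.

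The arrays were of like quality on most measures. Array medians lay between 7.06 and 7.09. Correlations between arrays were 0.990 to 0.992 within benzyl alcohol, 0.995 to 0.997 within heat shock and 0.977 to 0.986 between them. Heat shock array 1 stood apart in its controls for RNA, with an Actb 3′ minus 5′ difference of 0.391 (0.122 and 0.142 in the other heat shock arrays, −0.0695 to 0.0445 after benzyl alcohol) and an 18S rRNA signal of 10.3 against 7.81 to 8.43 in the other treated arrays. Its part in the results was not tested beyond leaving it out, which gave 2114 calls. The 5 untreated arrays were not alike: benzyl alcohol arrays correlated at 0.977 to 0.982 with control arrays 1 and 3 and at 0.985 to 0.992 with control arrays 2, 4 and 5, whereas heat shock arrays correlated at 0.986 to 0.989 with the former and at 0.9748 to 0.9813 with the latter. Markers of the pigment lineage were present after either treatment, with means of at least 11.3 for Pmel, Dct, Tyrp1 and Tyr. Of the markers of fibroblasts (10 genes), epithelial cells (8) and endothelial cells (7), 0 differed between the treatments at an adjusted p under 0.05, and of 11 macrophage and leukocyte markers 1 did, Cd68, a lysosomal protein (5.32 to 5.48 after heat shock and 6.37, 5.78 and 6.47 after benzyl alcohol).

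By the position of the arrays, most HSF1 targets stood above untreated cells after either treatment. At their brightest probesets, those that differed were higher after heat. Of 25 HSF1 targets measured, 6 passed in the direct test (24%, against 14.9% of all genes), all higher after heat shock, 0 were higher after benzyl alcohol and 19 did not pass. The 6 became 3, 4 and 3 without heat shock array 1, 2 or 3, 9 without benzyl alcohol array 3, and 0 by an unmoderated test. The median difference was −0.14, beside −0.03 over all genes. Against the 5 control arrays, 17 of the 25 rose after heat shock (0.944% of all genes rose) and 12 rose after benzyl alcohol (0.726%). These comparisons share the control arrays, and the counts were 13 or more in both without control arrays 1 and 3 or without control arrays 2, 4 and 5. Without heat shock array 2 or 3 the 17 became 10. The heat shock arrays all lay above every control array at 19 of the targets (7.98% of all genes) and the benzyl alcohol arrays at 15 (3.2%). Averaged over the 25 targets, the level was 10.7, 10.7 and 10.9 in the heat shock arrays, 10.4, 9.97 and 10.8 in the benzyl alcohol arrays and 9.27 to 9.38 in the control arrays. The arrays measure RNA of whole cultures, so that fewer responding cells and less RNA in each cell cannot be told apart.

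**Figure D1:**
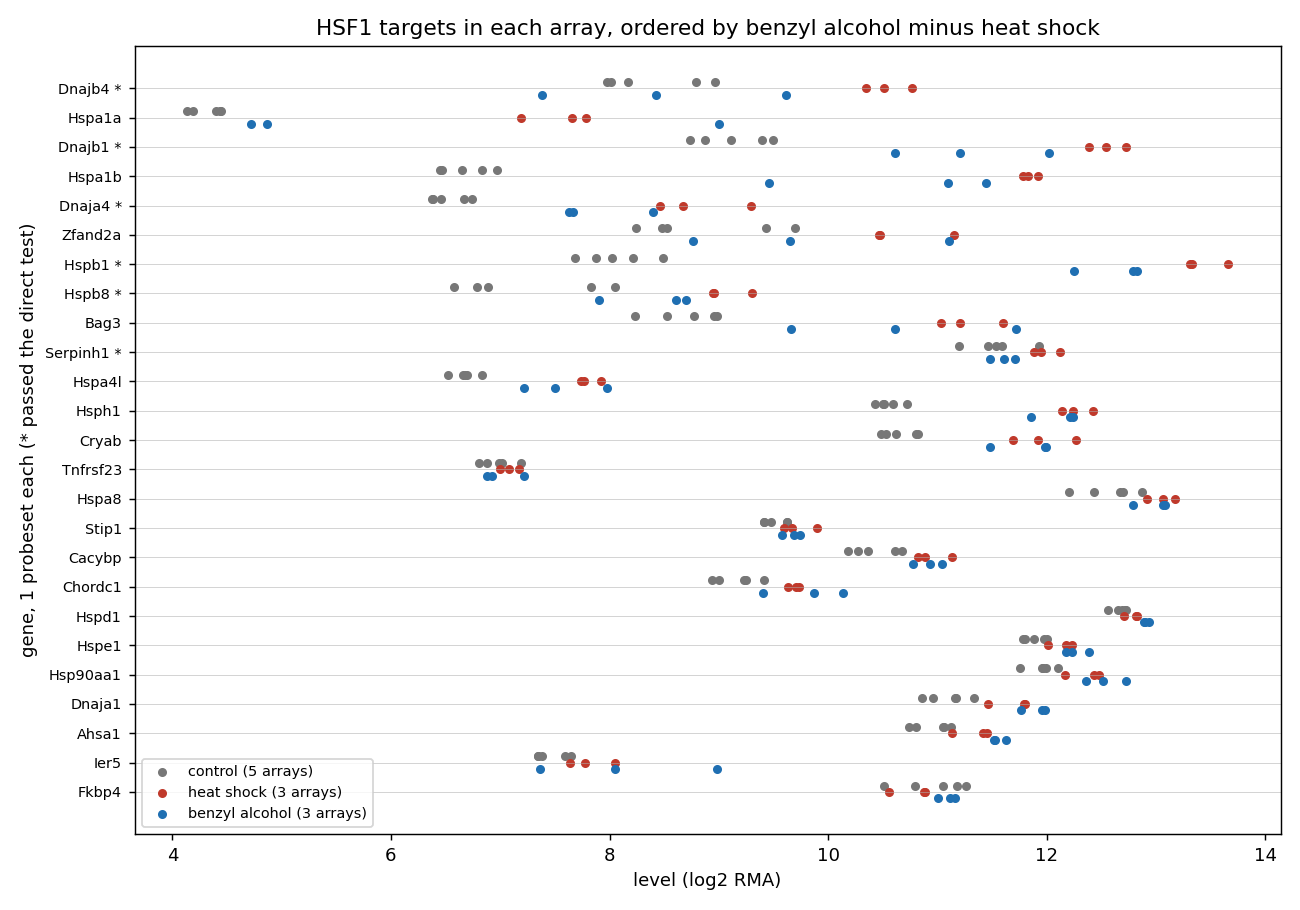
Level (log2 RMA, horizontal axis) of 25 HSF1 targets (vertical axis, 1 probeset a gene, ordered by benzyl alcohol minus heat shock) in each control, heat shock and benzyl alcohol array, a point standing for an array. Red and blue points lie to the right of the grey ones for most genes, and at Dnajb4 the heat shock arrays (10.3 to 10.8) stand apart from both the benzyl alcohol arrays (7.38 to 9.62) and the control arrays (7.97 to 8.97).

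Several chaperones reached the same level with the fluidizer as with heat. Hsph1 encodes HSP105, which swaps the nucleotide of HSP70 chaperones. Its levels were 12.42, 12.14 and 12.24 after heat shock, 12.22, 11.85 and 12.24 after benzyl alcohol and 10.43 to 10.72 in control arrays. All treated arrays were more than 1 unit above the highest control array, and the treatments overlapped. The direct difference was −0.16 (SE 0.13, 95% interval −0.44 to 0.12), and Hsph1 had risen by 1.55 over control with benzyl alcohol (adjusted p = 2.3e-06) and by 1.71 with heat shock (adjusted p = 2.9e-07). Cryab, a small heat shock protein that keeps unfolded proteins in solution, was at 11.92, 11.69 and 12.27 after heat shock, 11.98, 11.48 and 11.99 after benzyl alcohol and 10.48 to 10.83 in control arrays. Again the treated arrays overlapped each other and cleared the control arrays, with a direct difference of −0.14 (95% interval −0.51 to 0.23).

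The cytosolic chaperone HSP90α, from Hsp90aa1, was at 12.17, 12.48 and 12.43 after heat shock and at 12.72, 12.36 and 12.52 after benzyl alcohol, against 11.76 to 12.10 in control arrays. Its direct difference was 0.17 (95% interval −0.10 to 0.45). Ahsa1, which drives the ATPase of HSP90, differed by 0.23 (95% interval −0.02 to 0.47). Dnaja1, a J-domain protein that loads clients onto HSP70, differed by 0.21 (95% interval −0.05 to 0.48), and its dimmer probeset passed with a higher level after benzyl alcohol (0.57, adjusted p = 0.0033). Hspd1 and Hspe1, the mitochondrial HSP60 and HSP10, differed by 0.12 (95% interval −0.09 to 0.33) and 0.13 (95% interval −0.11 to 0.36). At these brightest probesets the 95% intervals of the difference stayed within 0.5 on the log2 scale, whereas the mean over the probesets of Dnaja1 differed by 0.39 and passed (adjusted p = 0.0141). The benzyl alcohol arrays of Hspd1, at 12.93, 12.89 and 12.90, lay above all control arrays (12.56 to 12.73), and its heat shock arrays, at 12.71, 12.83 and 12.82, did not.

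The small heat shock protein Hspb1 carried the largest rise over control cells among the targets and was still higher after heat. Its levels were 13.33, 13.31 and 13.66 after heat shock, 12.82, 12.25 and 12.79 after benzyl alcohol and 7.68 to 8.49 in control arrays. The groups did not overlap, as was so at 31.6% of all probesets for the treated arrays. Heat shock gave 1.76 times the benzyl alcohol level (−0.81, SE 0.16, adjusted p = 0.0051), while the rises over control were 5.38 and 4.56. The other Hspb1 probeset differed by −0.84 (adjusted p = 0.0452), a call lost without benzyl alcohol array 1 or 2 or any heat shock array (adjusted p 0.0695 to 0.173).

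Dnajb4 and Dnajb1 encode J-domain proteins that stimulate HSP70. Dnajb4 was at 10.34, 10.51 and 10.77 after heat shock, 8.42, 7.38 and 9.62 after benzyl alcohol and 7.97 to 8.97 in control arrays. All its heat shock arrays and benzyl alcohol array 3 cleared the controls, benzyl alcohol array 2 was under them, and the level was 4.19 times higher with heat (−2.07, SE 0.40, adjusted p = 0.0048). Its other probeset differed by −1.44 (SE 0.23, adjusted p = 0.0017), again with the heat shock arrays and benzyl alcohol array 3 above all controls. Dnajb1 was at 12.38, 12.54 and 12.72 after heat shock, 11.20, 10.61 and 12.02 after benzyl alcohol and 8.73 to 9.50 in control arrays. Here both treatments cleared the controls and heat shock was 2.42 times higher (−1.27, SE 0.27, adjusted p = 0.0073). The other Dnajb1 probeset gave −2.18 (adjusted p = 0.0309).

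The remaining targets that passed did so by less. Dnaja4, a further J-domain protein, was at 8.67, 8.46 and 9.29 after heat shock, 7.67, 7.63 and 8.40 after benzyl alcohol and 6.38 to 6.75 in control arrays (−0.91, SE 0.23, adjusted p = 0.0199). Hspb8, a small heat shock protein that works with Bag3, was at 8.95, 8.95 and 9.30 after heat shock, 8.61, 7.90 and 8.70 after benzyl alcohol and 6.57 to 8.05 in control arrays (−0.66, SE 0.19, adjusted p = 0.0354). Serpinh1, the collagen chaperone HSP47, was at 11.88, 11.95 and 12.12 after heat shock, 11.71, 11.48 and 11.61 after benzyl alcohol and 11.19 to 11.93 in control arrays (−0.38, SE 0.11, adjusted p = 0.0368). Its other probeset differed by −0.81 (adjusted p = 6.7e-04). The Dnaja4 call was lost without benzyl alcohol array 1 or 2 or heat shock array 1 or 3 (adjusted p 0.0589 to 0.0805), the Hspb8 call without any heat shock array (0.0651 to 0.147), and the Serpinh1 call without benzyl alcohol array 2 or 3 or any heat shock array (0.0633 to 0.184).

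The inducible HSP70 genes varied widely between benzyl alcohol arrays. Hspa1b was at 11.92, 11.83 and 11.78 after heat shock, 11.10, 9.46 and 11.45 after benzyl alcohol and 6.45 to 6.97 in control arrays. All benzyl alcohol arrays were below all heat shock arrays, yet the difference did not pass (−1.17, SE 0.37, 95% interval −1.99 to −0.35, adjusted p = 0.0578), nor did those of its other probesets (−1.17 and −0.91). Over control, Hspa1b had risen by 5.17 with heat shock and by 3.995 with benzyl alcohol. Its twin gene Hspa1a was at 7.78, 7.19 and 7.65 after heat shock and 4.13 to 4.44 in control arrays. After benzyl alcohol it was at 4.86 and 4.72 in arrays 1 and 2 and at 8.998 in array 3, so that array 3 lay above the heat shock arrays and the others near the controls (−1.35, SE 0.84, adjusted p = 0.353). The proteins and transcripts of these genes are nearly identical, and a probeset named for one may also read the other.

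Bag3, a co-chaperone that steers HSP70 clients to degradation, spread in the same way, with 11.21, 11.03 and 11.60 after heat shock, 10.61, 9.66 and 11.72 after benzyl alcohol and 8.23 to 8.98 in control arrays (−0.62, SE 0.38, adjusted p = 0.337). Zfand2a, which accompanies the proteasome under stress, was at 10.46, 10.47 and 11.15 after heat shock, 9.65, 8.77 and 11.11 after benzyl alcohol and 8.25 to 9.70 in control arrays (−0.86, SE 0.43). In both genes benzyl alcohol array 2 was the lowest treated array and array 3 was at the level of heat shock. The other targets, Hspa4l, Fkbp4, Stip1, Cacybp, Chordc1, Ier5, Tnfrsf23 and Hspa8 at its brightest probeset, differed by −0.24 to 0.32 and did not pass. The brightest probeset of Fkbp4, which couples HSP90 to steroid receptors, gave 0.32 (adjusted p = 0.0945), and its dimmer one passed with the opposite sign (−0.68, adjusted p = 0.0042).

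Promoter sequences from RefSeq (assembly GRCm38.p6), from 250 bases before to 50 after each gene's start, were searched for pairs of heat shock units, GAANNTTC or TTCNNGAA, where N is any base. Each motif reads the same on both strands. At least 1 was found in the promoters of 14 of the 22 HSF1 targets that have an entry (63.6%) and of 4587 of 27025 genes in all (17%). It was present in 4 of the 6 targets that were higher after heat shock and in 10 of 16 that did not pass. A stretch of 3 units, GAANNTTCNNGAA or TTCNNGAANNTTC, which contains the pair, was found in 4 of the 22, Hspd1, Hspe1, Hsph1 and Chordc1, against 179 of all genes (0.662%). Those 4 genes did not pass in the direct test, and 0 of the 6 that were higher after heat shock held the longer stretch. A match is a description of the letters and not a binding site, and the list was itself written by hand as HSF1 targets. The windows below are shown because they belong to targets that were higher after heat shock (first 3), that varied between benzyl alcohol arrays (Hspa1b) or that reached like levels (last 3). Motif letters are in capitals, and each window is read 5′ to 3′ along the gene.
Dnajb4 (chr3:152193841-152193870, minus strand): ttcgttcgctgTTCTAGAAagtacagagac
Hspb1 (chr5:135887791-135887820, plus strand): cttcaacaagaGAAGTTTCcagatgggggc
Dnaja4 (chr9:54699458-54699487, plus strand): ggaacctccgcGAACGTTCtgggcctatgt
Hspa1b (chr17:34959324-34959353, minus strand): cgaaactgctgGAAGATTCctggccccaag
Hsph1 (chr5:149636351-149636380, minus strand): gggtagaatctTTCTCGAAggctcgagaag
Hspe1 (chr1:55088053-55088082, plus strand): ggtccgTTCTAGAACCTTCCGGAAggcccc
Chordc1 (chr9:18292260-18292288, plus strand): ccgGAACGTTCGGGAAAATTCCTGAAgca
The Hspa1b window also stands, letter for letter, in the promoter of Hspa1a (chr17:34972242-34972271, minus strand). The Hspe1 window lies between Hspe1 and Hspd1, which are read in opposite directions from it.

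Chaperones outside the HSF1 list differed in both directions. Of 17 J-domain co-chaperones of the cytosol, 3 were higher after benzyl alcohol and 4 after heat shock (41.2% called, against 14.9% of all genes). The 4 were the HSF1 targets Dnajb4, Dnajb1 and Dnaja4 and, outside that list, Dnajb2 (−0.75, adjusted p = 0.0030). Dnajc9, which handles histones, was higher after benzyl alcohol, at 10.37, 10.18 and 10.49 against 9.31, 9.34 and 9.23 (1.05, SE 0.11, adjusted p = 1.2e-04), and only the former arrays exceeded all control arrays (9.32 to 9.93). Of 8 subunits of TRiC, the ring that folds actin and tubulin, 2 were higher after benzyl alcohol and 6 did not pass (25% called). The 2 were Cct8 (0.62, adjusted p = 0.0018) and Tcp1 (0.39, adjusted p = 0.0199). The heat shock arrays of Cct8, at 10.44 to 10.48, were below all control arrays (10.66 to 11.08). Among HSP90 co-chaperones Ahsa2, a relative of Ahsa1, was higher after heat shock, at 10.56, 10.17 and 10.32 against 9.91, 9.62 and 9.97 (−0.51, adjusted p = 0.0208), with control arrays at 9.67 to 9.81.

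Of 9 HSP70 and HSP110 chaperones 1 passed (11.1%, against 14.9% of all genes). It was Hspa14, a ribosome-bound HSP70, which was higher after benzyl alcohol (0.66, adjusted p = 0.0035). Among 13 small heat shock proteins and BAG co-chaperones (23.1% called), Bag5 was higher after benzyl alcohol (0.51, adjusted p = 0.0157). The HSF1 targets Hspb1 and Hspb8 were higher after heat shock. Among 13 mitochondrial chaperones and proteases, 5 were higher after heat shock and 1 after benzyl alcohol (46.2% called). Those higher after heat shock include the protease Lonp1 (−1.05) and the import chaperone Hspa9 (−0.62). For Lonp1 the control arrays spanned 9.98 to 11.31, a range wider than the difference, and so it was for all 6 that passed. At their brightest probesets the measured heat shock factors, 2 genes, did not pass, and neither did 6 metallothioneins and zinc-response genes or 34 ribosomal proteins. A dimmer probeset of the metallothionein Mt1, chosen after its values were seen, did pass (−1.2015, SE 0.16, adjusted p = 5.5e-04), at 7.63, 7.44 and 6.97 after heat shock, 6.33, 6.09 and 6.01 after benzyl alcohol and 5.78 to 6.57 in control arrays. Of 33 proteasome subunits 1 was higher after heat shock (3.03% called), Psmb3 (−0.63).

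At some further probesets all heat shock arrays, but not all benzyl alcohol arrays, lay beyond the control arrays on one side. One of 4 probesets of Hspa8, the constitutive HSC70 chaperone, was at 10.88, 11.21 and 10.27 after heat shock, 6.61, 6.14 and 7.88 after benzyl alcohol and 6.28 to 7.39 in control arrays. Benzyl alcohol arrays 2 and 3 lay a little outside the controls, on different sides, and heat shock was 15 times higher than benzyl alcohol (−3.91, SE 0.36, adjusted p = 6.3e-05), whereas the other Hspa8 probesets differed by −0.08 to 0.08 and did not pass. Gas5, a host gene of small nucleolar RNAs that codes for no protein, showed the same split between probesets in the other direction. At the probeset with the largest difference it was at 5.24, 5.76 and 6.21 after heat shock, 8.33, 8.25 and 7.57 after benzyl alcohol and 8.12 to 8.49 in control arrays (2.31, SE 0.24, adjusted p = 1.2e-04), with benzyl alcohol array 3 also under the controls. A second probeset differed by 1.87, and the brighter pair by −0.11 and −0.21, which did not pass. The annotation used gives no positions of probes, so what these probesets read within the genes was not tested.

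Myc, Id3, Id2 and Hmga2 were lower after heat shock than after benzyl alcohol. Myc, the transcription factor that drives growth, was at 8.00, 8.05 and 8.47 after heat shock, 9.35, 9.28 and 9.16 after benzyl alcohol and 9.47 to 9.73 in control arrays (1.09, SE 0.13, adjusted p = 3.6e-04). Both treatments lay below all controls, with a fall of 1.47 against control for heat shock (adjusted p = 2.3e-06) and a value of −0.38 for benzyl alcohol that did not pass (adjusted p = 0.121). Id3, an inhibitor of differentiation that blocks basic helix-loop-helix factors, was at 7.57, 7.10 and 7.62 after heat shock, 10.45, 10.48 and 9.77 after benzyl alcohol and 8.25 to 10.04 in control arrays. It was 6.97 times higher after benzyl alcohol (2.80, SE 0.19, adjusted p = 1.2e-05), with all heat shock arrays below the controls and benzyl alcohol arrays 1 and 2 above them. Its relative Id2 differed by 2.40 (SE 0.19) and the chromatin protein Hmga2 by 2.25 (SE 0.26), and for Hmga2 all 3 probesets passed, by 1.96 to 2.25. Their heat shock arrays lay below all controls as well, at 8.62 to 9.01 for Id2 (control arrays 9.04 to 10.98) and 7.51 to 7.68 for Hmga2 (8.53 to 9.58). At Id3, Id2 and Hmga2 control arrays 1 and 3 were the lowest controls.

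Many genes for making ribosomes and some for processing RNA were lower after heat shock. Of 46 genes of ribosome assembly and RNA polymerase I, 18 were higher after benzyl alcohol than after heat shock, 0 lower and 28 did not pass. Calls made up 39.1% of the list, against 14.9% of all genes (median 0.30). Against control 10 of them fell with heat shock (4.42% of all genes fell) and 0 with benzyl alcohol (0.694%). The heat shock arrays were below all controls at 19 of the 46 (9.83% of all genes) and the benzyl alcohol arrays at 1 (4.64%). Nolc1, a nucleolar protein that gathers snoRNPs, was at 8.41, 8.78 and 8.57 after heat shock, 9.73, 9.28 and 9.57 after benzyl alcohol and 9.06 to 9.70 in control arrays (0.94, SE 0.14, adjusted p = 9.9e-04). Bop1, needed to make the large subunit, differed by 0.87 and the methyltransferase Fbl, which modifies rRNA, by 0.69. Of the 18 that passed, 9 differed by more than the whole range of the control arrays, as did 707 of the 1846 calls over all genes.

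Of 46 splicing factors and CLK kinases, 8 were higher after benzyl alcohol and 3 after heat shock (23.9% called, against 14.9% of all genes, median 0.23). The heat shock arrays were below all controls at 14 (9.83% of all genes) and the benzyl alcohol arrays at 5 (4.64%). Hnrnpk, an RNA-binding protein, was at 10.36, 10.58 and 10.34 after heat shock, 11.04, 10.87 and 10.88 after benzyl alcohol and 10.80 to 11.17 in control arrays (0.50, SE 0.11, adjusted p = 0.0088). Rsrp1, a splicing-related gene, went the other way, at 9.86, 9.74 and 9.79 after heat shock and 9.02, 9.04 and 8.55 after benzyl alcohol (−0.93, SE 0.13), and here the benzyl alcohol arrays were the ones below all controls (9.29 to 9.94). Of 18 factors of mRNA cleavage and polyadenylation, 5 were higher after benzyl alcohol and 0 after heat shock (27.8% called). Cstf1, a subunit of the cleavage stimulation factor, was at 8.21, 7.82 and 8.07 after heat shock and 8.78, 8.67 and 8.44 after benzyl alcohol (0.60, adjusted p = 0.0092), with control arrays at 8.64 to 8.84.

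Benzyl alcohol had rises of its own. Tnnt2, the cardiac troponin T of the contractile apparatus, was at 6.84, 5.29 and 6.60 after benzyl alcohol, 4.0016, 3.86 and 3.64 after heat shock and 3.49 to 4.70 in control arrays. It was 5.30 times higher after benzyl alcohol (2.41, SE 0.31, adjusted p = 4.5e-04), and its other probeset gave 1.82. Anp32a, an inhibitor of protein phosphatase 2A, was at 9.68, 9.32 and 10.11 after benzyl alcohol and 7.44, 7.66 and 7.29 after heat shock at one probeset (2.24, SE 0.17), with control arrays at 7.23 to 7.96, while its other probesets did not pass (0.30 and 0.26). Ccn2, a secreted matrix protein also known as connective tissue growth factor, was at 10.00, 9.76 and 10.83 after benzyl alcohol, 8.00, 7.90 and 8.56 after heat shock and 6.72 to 8.93 in control arrays (2.04, SE 0.24, adjusted p = 3.3e-04). In each of these only the benzyl alcohol arrays exceeded all controls. For Ccn2, control arrays 1 to 5 were at 6.72, 8.76, 7.05, 8.93 and 8.69, a range of 2.22 that is wider than the difference. The heat shock arrays of Ccn2 lay above control arrays 1 and 3 and below the others. Which of these cultures accompanied a treatment is not given. Its relative Ccn1 went the other way, at 10.72, 10.89 and 11.29 after heat shock and 9.73, 9.48 and 10.44 after benzyl alcohol (−1.08, SE 0.22, adjusted p = 0.0061), with control arrays at 8.49 to 10.03.

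Further genes of this pattern, chosen after their values were seen, were Lgals3, Dusp14, Plekho1 and Pdgfa. Lgals3, the sugar-binding protein galectin-3, was at 11.97, 11.79 and 11.57 after benzyl alcohol, 10.29, 10.26 and 10.24 after heat shock and 10.26 to 10.60 in control arrays (1.51, SE 0.12, adjusted p = 2.3e-05). Its rise over control with benzyl alcohol was 1.37 (adjusted p = 5.6e-05), and the heat shock value was −0.14 (adjusted p = 0.557). Dusp14, a phosphatase of MAP kinases, differed by 1.48, Plekho1, a membrane-binding adaptor, by 1.47 and Pdgfa, a growth factor, by 1.27. For each of these the lowest benzyl alcohol array was above the highest of the heat shock and control arrays.

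At some genes the arrays of the treatments lay on opposite sides of the untreated arrays. Id1, an inhibitor of differentiation and a target of BMP signalling, was at 10.49, 10.32 and 10.37 after benzyl alcohol, 7.56, 7.60 and 7.99 after heat shock and 8.02 to 9.20 in control arrays. The direct difference was 2.68 (SE 0.13, adjusted p = 6.8e-07), made up of a rise of 1.66 over control (adjusted p = 0.0012) and a change of −1.02 with heat shock (adjusted p = 0.0178). Smad6, an inhibitor that the BMP pathway induces against itself, was at 8.30, 8.08 and 8.07 after benzyl alcohol, 6.05, 6.14 and 5.83 after heat shock and 6.27 to 7.68 in control arrays (2.14, SE 0.12, adjusted p = 1.7e-06). Of its changes against control, that with heat shock passed (−1.09, adjusted p = 0.0263) and that with benzyl alcohol did not (1.05, adjusted p = 0.0639). Control arrays 1 to 5 were at 8.02, 9.10, 8.30, 9.05 and 9.20 for Id1 and at 6.47, 7.44, 6.27, 7.62 and 7.68 for Smad6. The direct differences exceeded these control ranges (1.18 and 1.41). The sizes of the changes against control rest on controls that were not alike, with arrays 1 and 3 the nearest to heat shock. Noct, a circadian phosphatase, was at 9.30, 8.91 and 9.01 after benzyl alcohol, 7.06, 6.64 and 7.12 after heat shock and 7.97 to 8.40 in control arrays (2.13, SE 0.15, adjusted p = 1.2e-05), and both its changes against control passed (0.90 and −1.23).

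Nppb and Klf10, chosen after their values were seen, behaved alike. Nppb, the natriuretic peptide BNP, was at 10.63, 10.58 and 11.03 after benzyl alcohol, 8.61, 8.58 and 8.86 after heat shock and 8.88 to 9.52 in control arrays (2.06, SE 0.14, adjusted p = 9.2e-06), with changes against control of 1.56 (adjusted p = 2.5e-05) and −0.51 (adjusted p = 0.0422). Klf10, a transcription factor induced by TGF-β, was at 7.76, 7.17 and 8.02 after benzyl alcohol, 5.58, 5.77 and 5.73 after heat shock and 6.73 to 6.85 in control arrays (1.96, SE 0.18, adjusted p = 5.7e-05). Its changes against control were 0.86 (adjusted p = 0.0094) and −1.09 (adjusted p = 0.0013). Spry2, a brake on receptor tyrosine kinases, was at 8.28, 7.75 and 8.31 after benzyl alcohol, 6.84, 6.86 and 7.15 after heat shock and 7.19 to 7.38 in control arrays (1.17, SE 0.15, adjusted p = 5.2e-04), and its other probeset differed by 0.43. Its change against control passed with benzyl alcohol (0.82, adjusted p = 0.0057) and not with heat shock (−0.35, adjusted p = 0.139). For all of these the lowest benzyl alcohol array exceeded the highest control array and the highest heat shock array was under the lowest control array.

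**Figure D2:**
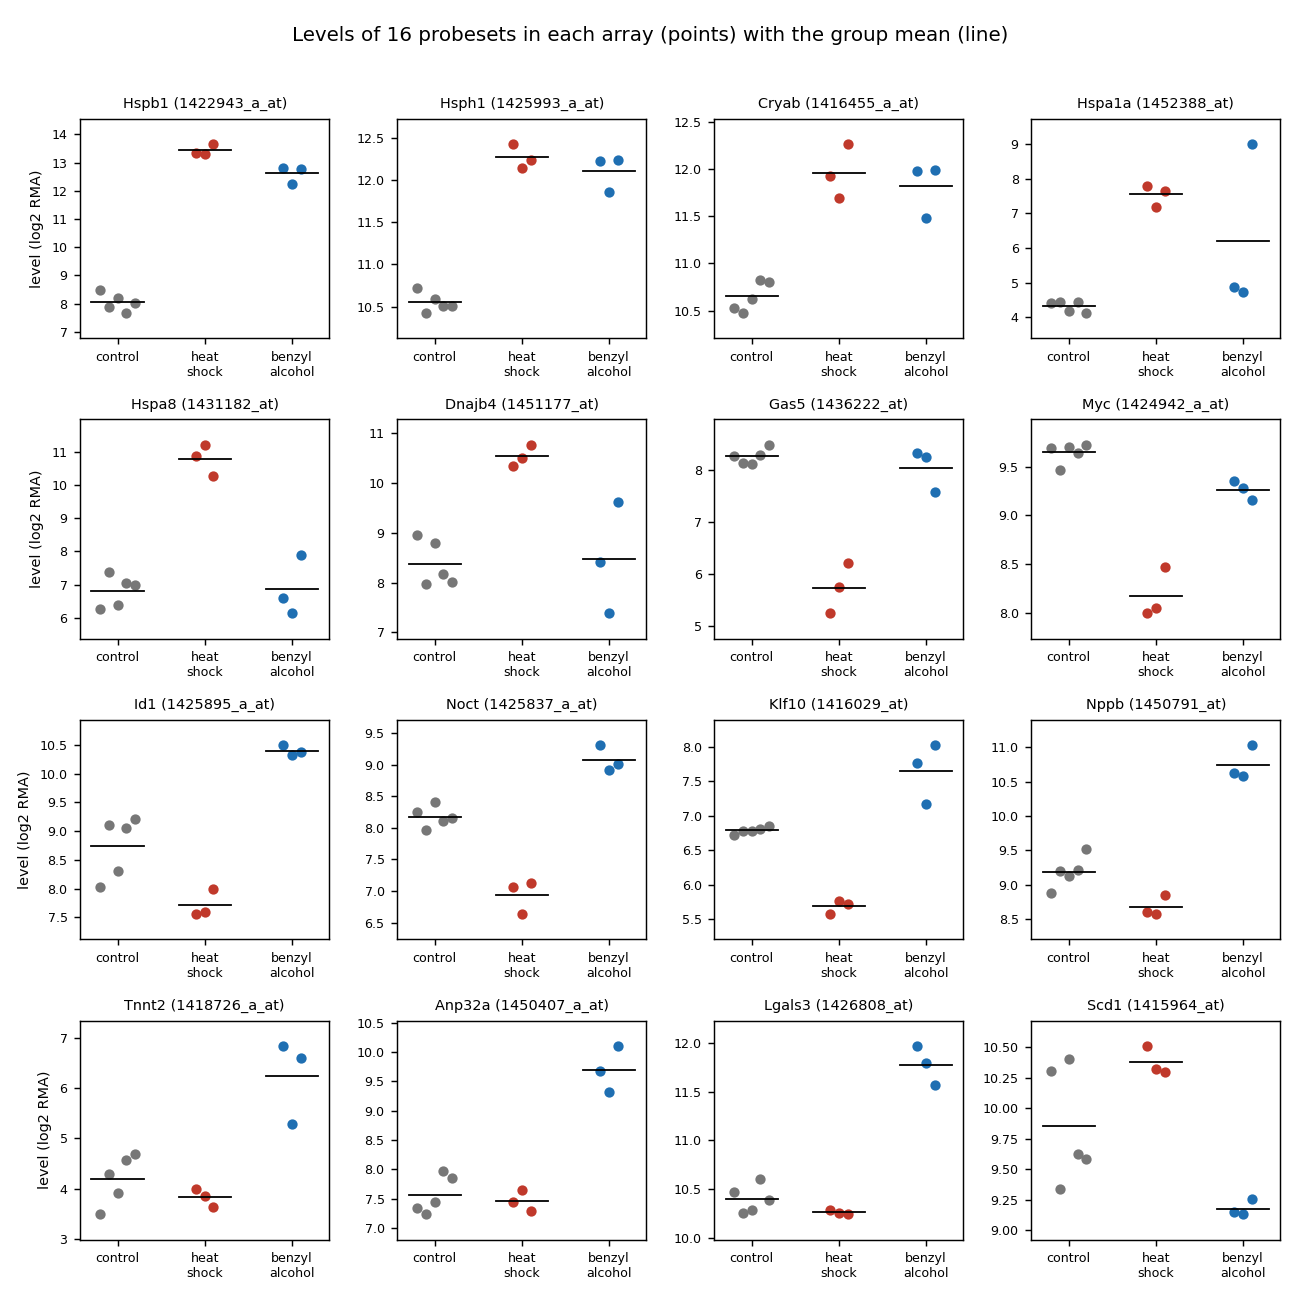
Level (log2 RMA, vertical axes, each with its own scale) of 16 probesets in 5 control, 3 heat shock and 3 benzyl alcohol arrays, with a point for each array and a line for the group mean. Hspb1, Hsph1 and Cryab are above the controls with both treatments, the second row shows Hspa8 and Dnajb4 (above) and Gas5 and Myc (below) with heat shock, the third row genes on opposite sides such as Id1 (10.3 to 10.5 after benzyl alcohol and 7.56 to 7.99 after heat shock), and the fourth genes displaced with benzyl alcohol.

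Genes displaced alike by both treatments were sought as well. They had to lie beyond all control arrays on the same side after either treatment, to pass against control in each, and to have a direct difference whose 95% interval stayed within −0.5 to 0.5. These criteria were met by 32 genes, sought among the 20380 probesets that carry 1 symbol. How many genes would meet them without a common response was not tested. Of the 8 with the largest changes, which include Hsph1 above, 5 were lower than control. Ehhadh, a peroxisomal enzyme of fatty acid oxidation, was at 4.68, 4.64 and 4.34 after heat shock, 4.81, 4.72 and 4.22 after benzyl alcohol and 5.18 to 5.79 in control arrays (direct difference 0.03, 95% interval −0.31 to 0.37). Ogt, which attaches N-acetylglucosamine to proteins, was at 6.65, 6.48 and 6.42 after heat shock, 6.79, 6.59 and 6.52 after benzyl alcohol and 7.02 to 7.69 in control arrays (0.12, 95% interval −0.13 to 0.36). Tulp3, Trim35 and Gtf2i were lower too, with direct differences of −0.13, −0.06 and 0.03. Tes, a protein of focal adhesions, was higher with both, at 9.69, 9.63 and 9.58 after heat shock, 9.92, 9.70 and 9.50 after benzyl alcohol and 8.75 to 9.44 in control arrays (0.07, 95% interval −0.19 to 0.33). Hspa4l, a relative of Hsph1, was higher at one of its probesets (0.05). The comparisons with control share the control arrays.

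Immediate early genes, switched on within minutes of a stimulus, gave a mixed picture. Of 36 that encode transcription factors, 7 were higher after benzyl alcohol, 2 after heat shock and 27 did not pass (25% called, against 14.9% of all genes, median 0.03). Besides Id1, Id2 and Id3 they included Bhlhe40, a repressor of clock genes, at 9.65, 9.34 and 9.99 after benzyl alcohol, 7.57, 7.74 and 7.92 after heat shock and 7.60 to 9.39 in control arrays (1.92, SE 0.16, adjusted p = 3.1e-05). Of 36 that encode signalling and secreted proteins, 17 were higher after benzyl alcohol and 8 after heat shock (69.4% called, median 0.27). Dusp2, a phosphatase of ERK, was at 8.78, 9.02 and 8.94 after benzyl alcohol, 7.83, 7.78 and 7.67 after heat shock and 8.13 to 8.89 in control arrays (1.15, SE 0.11, adjusted p = 5.9e-05). Gadd45a, a growth arrest gene, was higher after heat shock, at 7.87, 7.69 and 7.89 against 6.08, 5.00 and 6.23 (−2.05, SE 0.25), but the control arrays themselves lay at 9.52 and 9.12 in arrays 1 and 3 and at 4.59, 4.66 and 4.93 in the others.

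Genes tied to membranes differed in both directions. Of 27 genes of sterol synthesis and uptake, 9 were higher after heat shock and 2 after benzyl alcohol (40.7% called, against 14.9% of all genes, median −0.18). Fdps, which makes farnesyl diphosphate, was at 11.50, 11.62 and 11.53 after heat shock, 10.71, 10.52 and 10.69 after benzyl alcohol and 10.83 to 11.46 in control arrays (−0.91, SE 0.10, adjusted p = 2.1e-04). The heat shock arrays were above and the benzyl alcohol arrays below all controls, although neither change against control passed. Mvd, Fdft1 and Tm7sf2, further enzymes of the pathway, differed by −0.69, −0.63 and −0.56. Of the 11 of this list that passed, 8 differed by more than the range of the control arrays (707 of 1846 calls over all genes).

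Of 17 genes of fatty acid synthesis and desaturation, 5 were higher after heat shock and 2 after benzyl alcohol (41.2% called, against 14.9% of all genes, median −0.10). Scd1, the desaturase that makes oleic acid and so sets how fluid membrane lipids are, was at 10.51, 10.32 and 10.30 after heat shock and 9.15, 9.13 and 9.25 after benzyl alcohol, 2.29 times higher with heat (−1.20, SE 0.10, adjusted p = 4.6e-05). The benzyl alcohol arrays lay below all control arrays (9.34 to 10.40) and the heat shock arrays were at the top of them, yet neither change against control passed (−0.67 and 0.52). Fads1, a desaturase of polyunsaturated fatty acids, and Tecr, which elongates long chains, differed by −0.52 and −0.54, and the elongase Elovl5 by 0.62 in the other direction. In this list the benzyl alcohol arrays were below all controls at 6 genes (4.64% of all genes) and the heat shock arrays at 2 (9.83%).

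Phospholipid and sphingolipid enzymes were divided, with 5 of 37 higher after benzyl alcohol and 4 after heat shock (24.3% called, against 14.9% of all genes, median 0.04). Lpcat3, which puts polyunsaturated chains into phospholipids, was at 9.76, 9.63 and 9.67 after heat shock and 9.01, 9.24 and 9.14 after benzyl alcohol (−0.56, SE 0.10, adjusted p = 0.0037), with control arrays at 9.28 to 10.23. Genes of caveolae and membrane rafts leaned to benzyl alcohol, with 6 of 13 higher there and 1 after heat shock (53.8% called, median 0.36). Anxa1, which binds membrane lipids with calcium, was at 11.24, 10.94 and 11.14 after benzyl alcohol, 9.90, 9.96 and 9.85 after heat shock and 10.04 to 10.86 in control arrays (1.2003, SE 0.11, adjusted p = 5.4e-05). The caveolins Cav2 and Cav1 differed by 1.09 and 0.76, and Flot1, a raft protein, by −0.55. Of 15 YAP and TEAD targets, 6 were higher after benzyl alcohol and 1 after heat shock (46.7% called, median 0.30), with Ccn2 and Ccn1 at the ends. For 25 actin genes of SRF and MRTF the counts were 6 and 2 (32% called, median −0.02).

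Many of the largest differences towards heat shock lay in genes that also differed among the untreated arrays. ATF4 is the transcription factor of the integrated stress response, which cells start when they lack amino acids or fold proteins poorly. Of 32 of its targets, 29 were higher after heat shock, 0 after benzyl alcohol and 3 did not pass (median −1.15). Averaged over the list, the level was 10.3, 10.3 and 10.4 in the heat shock arrays and 8.91, 8.87 and 9.14 in the benzyl alcohol arrays, but in control arrays 1 to 5 it was 10.6, 8.80, 10.6, 8.85 and 8.81. Heat shock arrays thus lay near control arrays 1 and 3, and benzyl alcohol arrays near control arrays 2, 4 and 5. The direct difference exceeded the range of the controls at 2 of the 29 genes that passed. Which untreated cultures accompanied which treatment is not given in the sources used here, so for these genes treatment and culture cannot be told apart.

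Nupr1, a small chromatin protein made under stress, had the widest difference of all probesets tested. At that probeset it was at 10.07, 10.02 and 10.12 after heat shock, 5.56, 5.74 and 6.11 after benzyl alcohol, 10.53 and 10.57 in control arrays 1 and 3 and 5.34 to 5.47 in the other controls (−4.26, SE 0.13, 19.2 times higher with heat, adjusted p = 3.6e-08). Ddit3, the death-promoting factor CHOP, was at 11.88, 11.77 and 11.69 after heat shock and 8.50, 8.26 and 8.64 after benzyl alcohol (−3.31), with control arrays at 12.28, 8.27, 12.19, 8.43 and 8.13. Trib3, a pseudokinase that restrains ATF4, differed by −3.21, Chac1, which degrades glutathione, by −2.88, the stress factor Atf3 by −2.61 and Cebpb, a bZIP factor, by −1.16 at its brighter and −2.37 at its dimmer probeset. For none of these did all arrays of a treatment lie beyond the controls. Against the 5 control arrays together, 0 of the 32 targets passed with heat shock and 1 with benzyl alcohol, Phgdh, an enzyme of serine synthesis, which was lower (adjusted p = 0.0203). The heat shock arrays lay above all controls at 2 genes (7.98% of all genes) and the benzyl alcohol arrays below them at 3 (4.64%). Ddit4, an inhibitor of mTORC1, was at 11.32, 11.36 and 11.49 after heat shock, above all controls (6.83 to 10.95), and Pck2, a mitochondrial enzyme of glucose synthesis, was at 7.57, 7.83 and 7.63 after benzyl alcohol, below all controls (8.12 to 10.28).

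Of the 32 ATF4 targets measured, 27 have a promoter entry. A composite element for ATF4 and C/EBP proteins, TGATGNAA or its reverse complement TTNCATCA, was sought on either strand. It was found in 9 of the 27 (33.3%), against 1219 of all 27025 (4.51%). A match describes letters and is not a binding site. The list was written by hand as ATF4 targets, so this share does not bear on the arrays. The windows of 2 of the genes with the widest differences are shown with the element in capitals.
Nupr1 (chr7:126625562-126625591, minus strand): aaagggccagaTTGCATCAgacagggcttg
Chac1 (chr2:119351038-119351067, plus strand): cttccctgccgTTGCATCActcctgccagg

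Related stress programmes ran in parallel. Of 32 chaperones and other genes of the endoplasmic reticulum, which are induced when proteins unfold there, 25 were higher after heat shock and 0 after benzyl alcohol (median −0.61). The list averaged 10.7 in each heat shock array, 10.0, 9.81 and 10.0 in the benzyl alcohol arrays and 10.8, 9.83, 10.8, 9.90 and 9.84 in control arrays 1 to 5. Heat shock arrays lay above every control at 7 of the 32 (7.98% of all genes), while benzyl alcohol arrays did so at 0 (3.2%). The direct difference exceeded the range of the controls at 1 of the 25 genes that passed. Margins could be narrow, as at Pdia4, with its lowest heat shock array at 11.36 and its highest control array at 11.355. Sdf2l1, which assists the chaperone BiP, was at 11.26, 11.44 and 11.12 after heat shock, 9.55, 9.17 and 9.72 after benzyl alcohol and 9.32 to 11.10 in control arrays (−1.79, SE 0.14, adjusted p = 3.1e-05). Ero1b, an oxidase for disulfide bonds, was at 8.39, 8.27 and 8.22 after heat shock, 6.98, 6.92 and 7.16 after benzyl alcohol and 6.77 to 8.15 in control arrays (−1.27, SE 0.11). Creld2 and the disulfide isomerase Pdia4 differed by −1.70 and −1.44.

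NRF2 turns on antioxidant genes when reactive molecules modify its partner KEAP1. Of 23 of its targets, 13 were higher after heat shock and 1 after benzyl alcohol (median −0.65). The list averaged 10.3 in each heat shock array, 9.64, 9.56 and 9.47 in the benzyl alcohol arrays and 10.5, 9.25, 10.5, 9.37 and 9.34 in control arrays 1 to 5. Hmox1, heme oxygenase, was at 12.22, 12.30 and 12.54 after heat shock and 10.22, 9.31 and 10.21 after benzyl alcohol (−2.44, SE 0.21, adjusted p = 4.1e-05), with control arrays at 12.29, 8.40, 12.39, 8.78 and 8.53. Blvrb, which reduces biliverdin, Gclm, a subunit of the enzyme that starts glutathione synthesis, and the cystine carrier Slc7a11 differed by −2.13, −1.59 and −2.22. Of the 14 NRF2 genes that passed, 0 differed by more than the range of the control arrays.

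**Figure D3:**
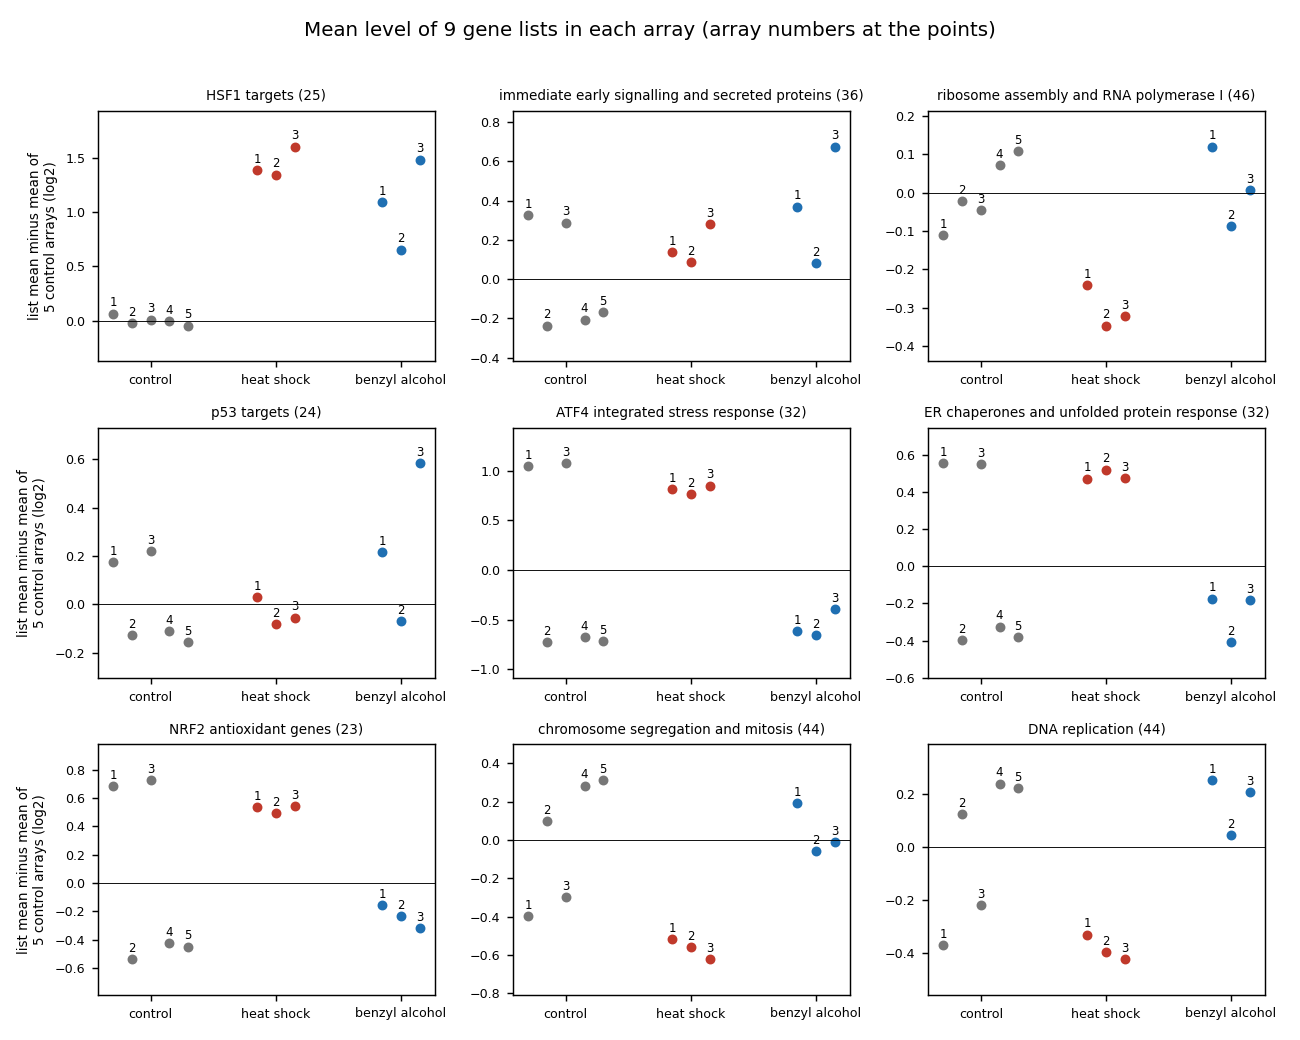
Mean level of 9 gene lists in each array, less the mean of the 5 control arrays (log2, vertical axes, each with its own scale), with array numbers at the points and the number of genes in each title. HSF1 targets separate both treatments from all controls, whereas for ATF4, endoplasmic reticulum and NRF2 genes heat shock lies near control arrays 1 and 3 and benzyl alcohol near control arrays 2, 4 and 5. For DNA replication and mitosis heat shock lies near or below control arrays 1 and 3.

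Many cell cycle genes were higher after benzyl alcohol than after heat shock. Of 44 genes of DNA replication, 32 were higher after benzyl alcohol and 1 after heat shock (median 0.61), and of 44 genes of chromosome segregation and mitosis 34 and 0 (median 0.62). Mitosis genes averaged 8.86, 8.82 and 8.75 in the heat shock arrays, 9.57, 9.32 and 9.37 in the benzyl alcohol arrays and 8.98, 9.47, 9.08, 9.66 and 9.69 in control arrays 1 to 5. The heat shock arrays lay below every control at 22 of these 44 genes and at 12 of the 44 of replication (9.83% of all genes). The benzyl alcohol arrays did so at 0 and 1 (4.64%). Against control, 21 mitosis and 6 replication genes fell with heat shock (4.42% of all genes fell), and 0 of either rose with benzyl alcohol (0.726%). Ccna2, cyclin A of S and G2 phase, was at 10.03, 10.00 and 9.94 after heat shock, 11.38, 11.32 and 11.09 after benzyl alcohol and 10.16 to 11.48 in control arrays (1.28, SE 0.11, adjusted p = 3.8e-05). Kif23, a kinesin of cell division, was at 8.90, 8.83 and 8.67 after heat shock, 10.03, 10.00 and 9.79 after benzyl alcohol and 9.17 to 10.24 in control arrays (1.14, SE 0.11). Both had heat shock arrays under all controls.

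Among replication genes Rrm1, a subunit of ribonucleotide reductase, differed by 1.29, and Mcm4, Mcm5 and Mcm3, of the replicative helicase, by 1.06, 0.84 and 1.00. Rrm1 was at 9.45, 9.67 and 9.62 after heat shock and 11.08, 10.84 and 10.71 after benzyl alcohol, with control arrays at 10.21, 11.30, 9.65, 11.35 and 11.53. Of 21 cyclins, kinases and inhibitors of G1, 8 were higher after benzyl alcohol and 0 after heat shock (38.1% called, against 14.9% of all genes, median 0.30). Cdk2, the kinase of S phase entry, led them (1.42). As with the stress programmes, few differences exceeded the control range, at 9 of 33 replication and 6 of 34 mitosis calls. For G1 this was so at 2 of 8 calls, and over all genes at 707 of 1846. Control arrays 1 and 3 had the lowest control means for replication and mitosis. Within the range of the controls, treatment and culture cannot be told apart for these genes either.

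Among genes of cell death and of p53, those that passed were mostly higher after benzyl alcohol. Of 24 p53 targets, 6 were higher after benzyl alcohol and 0 after heat shock (25% called, against 14.9% of all genes, median 0.26). The list averaged 7.75, 7.46 and 8.11 in the benzyl alcohol arrays and 7.56, 7.45 and 7.48 in the heat shock arrays, so that array 3 was the highest and the groups overlapped. Apaf1, which builds the apoptosome, was at 8.78, 8.14 and 8.63 after benzyl alcohol, 7.54, 7.42 and 7.30 after heat shock and 7.99 to 8.10 in control arrays (1.10, SE 0.15, adjusted p = 7.3e-04), and fell by 0.63 against control with heat shock (adjusted p = 0.0120). Gtse1, a regulator of p53 in G2, Zmat3, an RNA-binding protein, and Phlda3, an inhibitor of AKT, differed by 1.19, 0.60 and 0.47. Of 28 members of the BCL2 family and caspases, 9 were higher after benzyl alcohol and 1 after heat shock (35.7% called, median −0.0012). Those higher after benzyl alcohol include Birc5, an inhibitor of apoptosis (0.65), as well as Casp2 (0.56) and Bak1 (0.58), which opens the mitochondrial membrane. Of 18 genes of the JNK and p38 cascade, 3 were higher after benzyl alcohol, the kinases Map2k6, Map2k3 and Mapk14 (0.68, 0.64 and 0.52). That share of calls, 16.7%, is near the 14.9% of all genes. Of 13 genes of the MYC network, 2 went each way (30.8% called).

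Part of the pigment programme was lower after heat shock than after benzyl alcohol. Of 19 melanocyte genes, 5 were higher after benzyl alcohol and 0 after heat shock (26.3% called, against 14.9% of all genes, median 0.11). Of the 5 that passed, 0 differed by more than the range of the control arrays. Mitf, the master regulator of the lineage, was at 9.32, 9.50 and 9.72 after heat shock, 11.36, 11.70 and 10.75 after benzyl alcohol and 9.87, 11.74, 9.93, 11.62 and 11.68 in control arrays 1 to 5 (1.76, SE 0.20, adjusted p = 2.3e-04). Mc1r, the melanocortin receptor, was at 7.45, 7.07 and 7.45 after heat shock, 8.20, 8.27 and 8.04 after benzyl alcohol and 7.91 to 9.10 in control arrays (0.85, SE 0.13). Mlph, which tethers pigment granules, and Slc45a2, a melanosome transporter, differed by 1.04 and 0.50.

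The other lists were smaller in effect or divided. Of 27 chemokines, cytokines and NF-κB targets, 6 were higher after heat shock, among them the NF-κB subunit Relb (−1.25) and the chemokines Cxcl10 (−1.69) and Cxcl1 (−1.18), and of 25 genes of interferon and antigen presentation 6, among them H2-K1 and H2-D1 of the major histocompatibility complex (−1.11 and −0.81). Of these 12 calls, 0 exceeded the range of the control arrays, and the shares called were 22.2% and 24%. Of 29 lysosomal genes 9 were higher after heat shock and 3 after benzyl alcohol (41.4% called). Of 20 autophagy genes the counts were 3 and 0 (15% called, as were 14.9% of all genes). Of 16 genes of alcohol and aldehyde metabolism they were 4 and 0 (25% called), with Adh7, an alcohol dehydrogenase, at −0.89. Among the autophagy and alcohol calls, 0 exceeded the range of the control arrays. Genes of glycolysis and hypoxia divided 5 to 5 of 30 (33.3% called) and those of the clock 2 to 2 of 14 (28.6%). Targets of the aryl hydrocarbon receptor divided 1 to 1 of 9 (22.2%). Oxidative phosphorylation divided 3 to 2 of 44 (11.4% called). Of 5 snoRNA host genes at their brightest probesets, 1 was higher after heat shock (20% called), Snhg1 (−0.66).

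**Figure D4:**
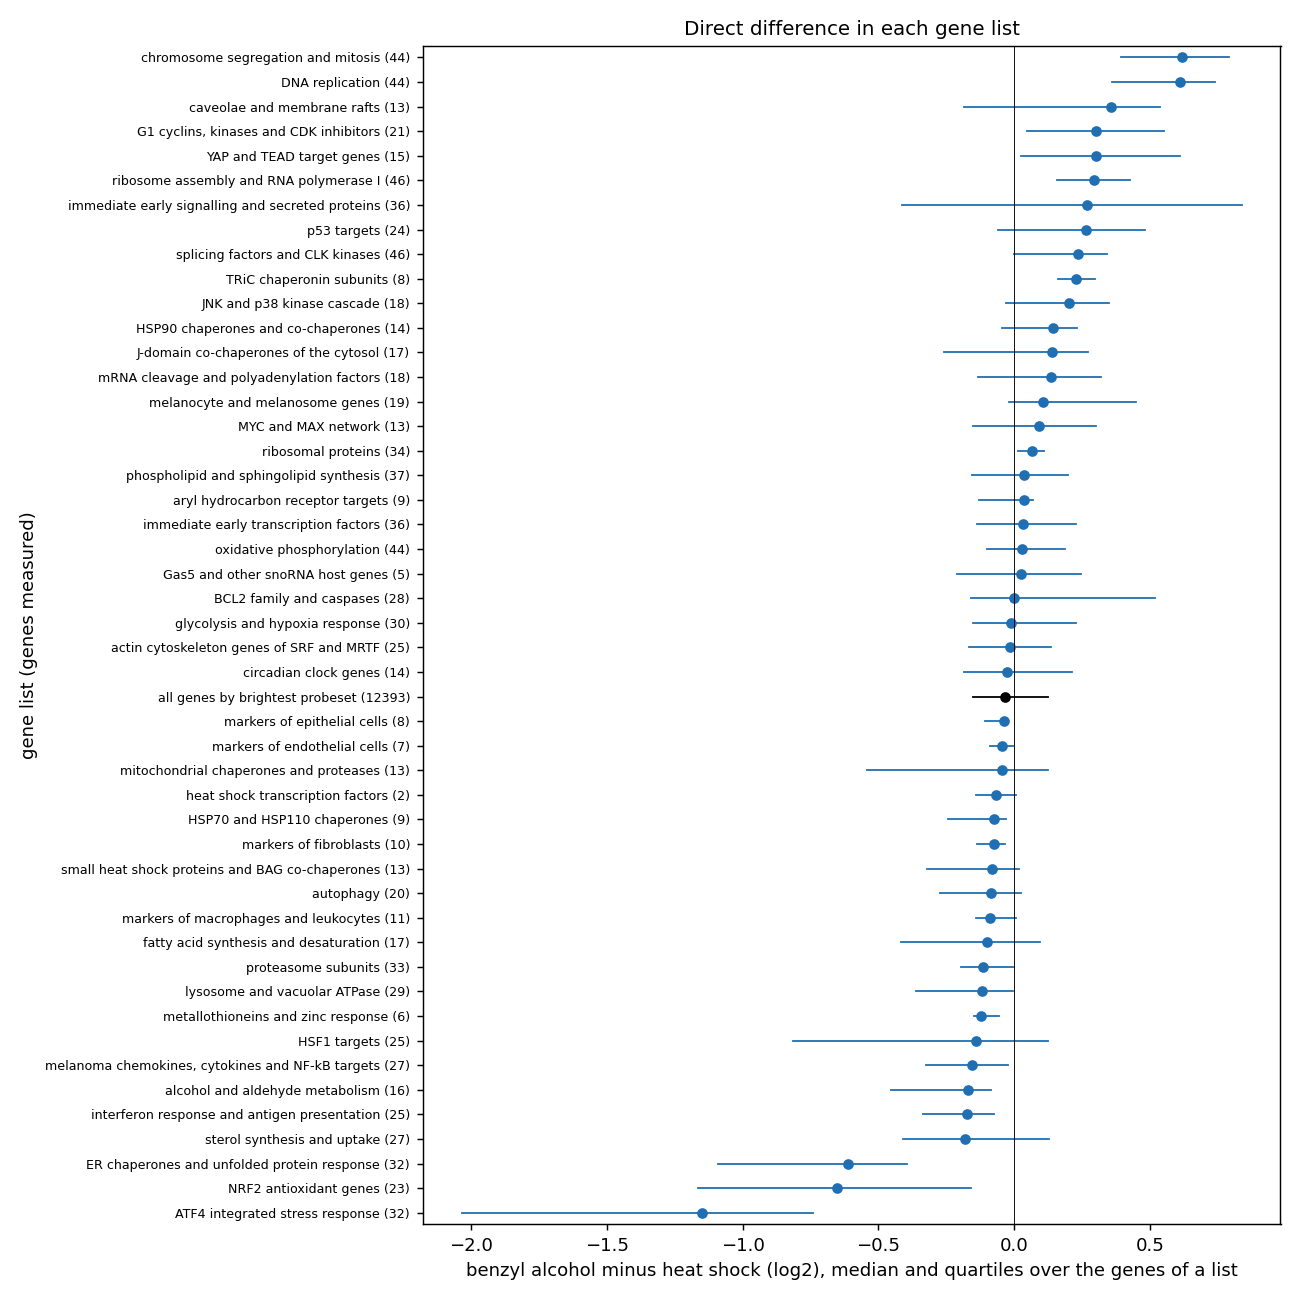
Benzyl alcohol minus heat shock (log2, horizontal axis) for 47 gene lists and for all genes (black), with a point for the median and a line from the lower to the upper quartile over the genes of a list, whose number is in brackets. Mitosis and DNA replication are at the top (0.62 and 0.61), ATF4 targets at the bottom (−1.15), and HSF1 targets (−0.14) stretch from near 0 far to the left.

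Over all probesets, the direct calls can be placed against the untreated arrays, treatment by treatment. Among the 2191 probesets higher after benzyl alcohol, the heat shock arrays were below all controls at 937 and the benzyl alcohol arrays above all controls at 284 (10.2% and 3.17% of all probesets). Among the 1145 higher after heat shock, the heat shock arrays were above all controls at 163 and the benzyl alcohol arrays below them at 238 (7.58% and 4.38% of all probesets). The difference was larger than the range of the 5 controls at 966 and 259 of the calls (44.1% and 22.6%), beside 10.9% of all probesets. These positions share the control arrays and are given as a description.

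Benzyl alcohol arrays were less alike than heat shock arrays. The median standard deviation over probesets was 0.15 after benzyl alcohol and 0.0963 after heat shock (n = 3 each). Benzyl alcohol array 3 lay at least 1 unit above both others at 38 probesets and below them at 11, array 2 lay above at 0 and below at 20, and array 1 above at 8 and below at 0, while the heat shock arrays did so at 3 probesets in all. The genes concerned, chosen after their values were seen, include Jun, a subunit of AP-1 (8.69, 7.30 and 11.52 in benzyl alcohol arrays 1 to 3), Egr1, an immediate early zinc finger factor (7.64, 7.09 and 10.18), and Btg2, an antiproliferative gene (6.82, 6.65 and 9.14). Sox10, a factor of the pigment lineage, was low in array 3 at one probeset (8.37, 8.49 and 6.43). Array 3 was thus the highest for these stress genes and for Hspa1a, and array 2 the lowest for Hspa1b, Dnajb1 and Jun. Calls over all probesets numbered between 2048 and 4126 with 1 of the 6 arrays left out, the lowest being 2114, 2056 and 2048 without heat shock arrays 1, 2 and 3.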

How the data were processed

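RNA of 14 cultures was measured on Affymetrix mouse expression arrays. The authors scanned the arrays, read them with GCOS 1.2 and applied RMA, and the deposited values are log2 signals. The version of RMA and the arrays processed together are not given in the sources used here. Samples were grouped by their labels. From the log2 values, 64 Affymetrix control probesets were left out, and 22626 were tested without a filter. Of these, 20380 carry 1 symbol, 691 several and 1555 none. Since RMA equalizes the arrays, a shift shared by most transcripts would not be seen, and small differences at bright probesets may be compressed. With 3 arrays a group, the number of arrays limits the precision.

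Benzyl alcohol minus heat shock was fitted with limma 3.58.1 in R 4.3.3 on the 6 arrays (4 residual and 7.47 prior degrees of freedom), two-sided, with Benjamini-Hochberg adjustment over all probesets. Differences from control came from 1 fit of all 14 arrays (5.6 prior degrees of freedom). A gene in a list is read from its brightest probeset over the 14 arrays. Lists were written by hand and described by counts and medians, without set tests. Members and lists were chosen with earlier results of these data known. Named genes are the 10 largest differences each way, all HSF1 targets, up to 4 calls a list by smallest p, 8 genes displaced alike, and the hsp genes of the study. Others are marked as chosen after their values were seen.

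The code was tested on simulated data. Alternatives were fits with more arrays, the replicate number as a block, quantile normalization or equal medians, a variance trend, array weights, an unmoderated test, removal of the dimmer or of cross-hybridizing probesets, other thresholds, the mean of a gene's probesets, and arrays left out. Leaving arrays out of the fits against control was chosen after seeing the data. Sequences are from RefSeq promoters (GRCm38.p6), of which 27025 genes had one. P-values of the main direct test measure only the spread among arrays given the same treatment. Differences among the untreated cultures do not enter them. The p-values against control also take in the spread among the control arrays.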

Additional observations from a re-analysis of the deposited data

Results flagged for a closer look

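The Lipofectamine arrays, which are outside the comparison, all lay above the 5 control arrays at 33 of 187 named probesets. The share over all probesets was not counted, and the named probesets were not a random draw, so the count is a description only. Means given here are levels and not changes against control. Among genes higher after benzyl alcohol than after heat shock, the mean of the 3 Lipofectamine arrays was 9.67 at Id1, 8.83 at the Gas5 probeset with the largest direct difference, 8.08 at Spry2, 10.3 at Phlda3, 8.04 at Hilpda and 10.98 at Map2k3. Among HSF1 targets that were higher after heat shock it was 9.85 at Dnajb1, 8.46 at Hspb8, 7.11 at the dimmer Hspb1 probeset and 8.00 at the dimmer Dnajb4 probeset. At HSF1 targets that did not pass between the treatments it was 8.61, 8.53 and 7.45 at the 3 Hspa1b probesets, 11.6 at Dnaja1, 9.50 at Bag3, 10.9 and 9.52 at 2 probesets of Hsph1, and 13.0, 12.6 and 9.74 at 3 of Hspa8.

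Among the other genes higher after heat shock, the Lipofectamine mean was 10.0 at Ahsa2, 12.1 at Gclm, 10.2 at Slc7a11, 11.7 at Fdps, 10.9 at Tecr, 10.8 at Ccn1, 8.35 at Mxd4, 8.89 at Cxcl1, 9.04 at Rsad2, 8.36 at Nqo1, 10.2 at Adh7, 9.36 at Cat and 9.02 at Nr1d2. Single arrays far from the others were looked for in 92 sets of values of the control arrays, and 0 were found.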

How the results depend on the processing

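The 3336 calls (2191 higher after benzyl alcohol, 1145 after heat shock) were 1633 (1230 and 403) in a fit of all 14 arrays, 1061 (847 and 214) with the 11 control and treated arrays, 557 (297 and 260) by an unmoderated test, 1873 (1232 and 641) at an unadjusted p under 0.001 and 1613 (1098 and 515) with a fold of at least 1.5. Quantile normalization gave 1918 and 1530. With 1 array left out they ranged from 2048 to 4126 (1338 to 2815 and 667 to 1311). HSF1 targets higher after heat shock numbered 0 by the unmoderated test, 3 at an unadjusted p under 0.001 and 3 to 9 with an array left out. Those higher after benzyl alcohol numbered 1 with array weights (Fkbp4) and 1 by the mean of all probesets of a gene (Dnaja1), where 7 were higher after heat shock. The 352 calls in lists were 186, 120, 94 and 220 with 14 arrays, 11 arrays, the unmoderated test and the fold, and 254 to 389 with an array left out. Of 152 named probesets called, 92 remained called with 14 arrays, 68 with 11, 58 by the unmoderated test and 130 with each array left out, and 0 changed sign under any alternative. The cause of these losses was not tested.

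Replicate numbers do not pair the samples (correlations of deviations −0.113, 0.0124 and 0.0169). With the replicate block 3099 probesets were called, and 7 HSF1 targets were higher after heat shock. Against control, benzyl alcohol gave 314 calls and heat shock 1443. Leaving out control arrays 1 and 3 gave 686 and 4508, leaving out the other 3 gave 2826 and 377, and with 1 array left out the counts were 131 to 441 and 187 to 2613. The lowest for benzyl alcohol were 190 and 131, without its arrays 1 and 3, and for heat shock 397, 187 and 235, without its arrays 1, 2 and 3, while without control arrays 3, 4 and 5 heat shock gave 2613, 589 and 648. HSF1 targets above control were 9 to 14 for benzyl alcohol and 10 to 17 for heat shock with 1 array left out, 13 and 17 without control arrays 1 and 3, and 15 and 13 without the other 3. Only differences that had not passed reversed. Quantile normalization gave Hspa4 −0.0681 and Hspa8 −0.0246 at 1 probeset each, and array weights Hspa1a 0.138, Hsph1 0.105 and Hspa4 −0.139 and 0.0370. With an array left out, Ier5 ranged from −0.116 to 0.695, Cryab from −0.273 to 0.0279, Chordc1 from −0.0510 to 0.312, Stip1 from −0.1105 to 0.0360, Cacybp from −0.0897 to 0.0627, Hspa4l from −0.0321 to 0.0902, Hsph1 at a dimmer probeset from −0.357 to 0.117, Hspa4 from −0.0826 to 0.147 and −0.0943 to 0.0134, and Hspa8 up to 0.0205 at its brightest probeset and from −0.191 to 0.0472 at another.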
